A study of Capsicum annuum with 5 samples.

Results

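The miR396 family (can-miR396) of pepper, Capsicum annuum inbred line Zunla 1, comprised 4 of the 165 distinct hairpins and 8 of the 314 mature sequences in the deposited miRNA annotation. Its members were taken by name, as the precursors can-miR396a to can-miR396d and every mature sequence listed under them. Small RNA of 5 tissues was sequenced with 1 library each, from developing roots, developing stems, mature leaves, fully open flowers and fruits. The design text gives 22 °C and 16 h of light for the soil-grown plants that supplied roots, stems and leaves. The stage of the fruit is mature green in the sample label and breaker in the design text, so the group is called fruit here. All groups were of the same inbred line, and the labels name no treatment. The annotation holds no mRNA, so tissue identity could not be checked against marker genes. As each tissue is a single library, differences between tissues could not be set against replicate error. They carry no p-value, and all intervals cover counting error only.

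miR396 is a conserved plant miRNA that pairs with the mRNAs of growth-regulating factors (GRFs), transcription factors which act with GIF coactivators to keep cells dividing in young organs. In Arabidopsis, more miR396 gives less GRF activity and smaller leaves, and in tomato, a relative of pepper, lowering miR396 enlarges flowers and fruits. The strand that guides silencing comes from the 5′ arm of the hairpin, and the 3′ arm supplies its partner in the duplex cut out by the DICER-LIKE enzyme, often called the star strand.

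The 8 mature sequences are printed to show where the hairpins differ, in DNA letters as deposited, 5′ to 3′, with the seed (bases 2 to 8) in capitals.
miR396a-5p: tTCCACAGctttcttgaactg
miR396b-5p: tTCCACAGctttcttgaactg
miR396c-5p: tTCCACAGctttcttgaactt
miR396d-5p: tTCCACAGctttcttgaacta
miR396a-3p: tTCAATAAagctgtgggaag
miR396b-3p: gTTCAATAaagctgtgggaag
miR396c-3p: gTCCAAGAaagctgtgggaaa
miR396d-3p: tTCAAGAAagttgtgggaaa
All 4 guide-arm entries shared 1 seed, which stood in 0 of the 238 distinct sequences of other families. miR396a-5p and miR396b-5p were identical. Counted from the 5′ end, miR396c-5p differed from them by G21T and miR396d-5p by G21A, so the 3 distinct guide sequences had a run of 20 bases in common.

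The star strands were more diverse. miR396a-3p was miR396b-3p without its first base. Relative to miR396b-3p, miR396c-3p carried T3C, T7G and G21A, and the longest run they shared was 13 bases. miR396d-3p carried T7G, C12T and G21A in the numbering of miR396b-3p, with a longest shared run of 8 bases. Relative to miR396c-3p and in its numbering, miR396d-3p carried C3T and C12T, with a shared run of 9 bases.

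These shared bases limit what the counts can resolve. miR396a-5p and miR396b-5p had the same count in 4 of the 5 libraries and 940 against 938 tags in flower, although their sequences are the same. The 3′ counts of miR396a and miR396b differed by at most 9 tags in any library, and by at most 3.25% of the higher count. A listed count can therefore hold tags other than the exact sequence printed. Tags that end within the 20 common bases could be listed under all 3 guide sequences, and how such tags were assigned was not given in the sources used here. The star strands of miR396a/b, miR396c and miR396d are the members least able to share tags, since their common runs are short.

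The 4 hairpins formed 2 pairs, each with 1 hairpin of the miR396a/b guide and 1 of the others. On chromosome 9, miR396d lay at chr9:882345-882564 on the plus strand and miR396a at chr9:892542-892663 on the minus strand, 9.98 kb apart. On chromosome 7, miR396b lay at chr7:23807335-23807457 on the plus strand and miR396c at chr7:23900846-23900952 on the minus strand, 93.4 kb apart. In both pairs the hairpins pointed towards each other. The genome build was not given in the sources used here, and no gene annotation of that build was used.

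The hairpins of the chromosome 7 pair are shown because their star strands peaked in different tissues, with both mature sequences in capitals.
miR396b: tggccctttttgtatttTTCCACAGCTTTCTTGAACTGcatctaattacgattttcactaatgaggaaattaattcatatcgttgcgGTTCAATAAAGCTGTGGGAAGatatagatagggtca
miR396c: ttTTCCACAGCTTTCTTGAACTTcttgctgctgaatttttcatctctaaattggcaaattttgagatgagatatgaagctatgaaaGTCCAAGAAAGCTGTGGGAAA
In the deposited structures, 20 of the 21 guide bases were paired in miR396b, miR396c and miR396d and 18 of 21 in miR396a. miR396b and miR396c each had 18 pairs between guide and star strand, with 3′ overhangs of 2 nt on both strands, the form that DICER-LIKE cutting leaves. miR396a had 17 such pairs and miR396d 18. In both of these, whose listed star strands are 20 nt long, the overhang of the guide strand was 3 nt.

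Over their whole length, mature sequences included, the hairpins differed widely. The parts outside the mature sequences were not aligned by themselves. Aligned end to end, miR396a and miR396b were 62.9% identical, and the other 5 pairs of hairpins were between 43.7% and 59.2% identical. Over 13149 pairs of hairpins from different families the median identity was 46.5% and the highest 61.9%, so only miR396a with miR396b stood above all of them. Identity was taken over the length of the alignment, so the greater length of miR396d lowers it in every pair with miR396d. miR396d, with 220 nt and 177 nt between its mature sequences, was longer than all but 6 of the 165 hairpins. The other 3 had 122, 123 and 107 nt, next to a median of 101 nt over all hairpins. Base composition ran from 27.0% G and C in miR396a to 35.8% in miR396b, below the median of 40.2%. The folding energy computed per 100 nt was -37.6 and -37.8 kcal/mol for miR396a and miR396d and -47.4 and -45.6 for miR396b and miR396c, with a median of -45.6 over all hairpins.

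All 40 values of the family, 8 mature sequences in 5 libraries, were above 0. With each distinct sequence counted once, the 7 sequences had 2655 tags in stem, 1151 in root, 4924 in leaf, 3588 in fruit and 3342 in flower. The listed tags of all families, each sequence once, came to between 231560 in root and 678854 in flower. These totals cover annotated miRNAs, and library depth is unknown. By tags miR396 ranked between the 6th of 64 families in fruit and the 14th in root, and the 12th over all libraries.

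After division by the listed totals, miR396 was highest in fruit. It had 11522 tags per 1000000 listed tags there (95% Poisson interval 11148 to 11905), 9076 in leaf (8824 to 9333), 8328 in stem (8014 to 8651), 4971 in root (4688 to 5266) and 4923 in flower (4758 to 5093). These units are called normalised tags below. Fruit exceeded leaf by 1.27-fold (interval 1.22 to 1.33), leaf exceeded stem by 1.09-fold (1.04 to 1.14) and stem exceeded root by 1.68-fold (1.56 to 1.80). Root and flower differed by less than counting error, with a ratio of 1.01 (0.943 to 1.08). As the sums may count shared tags more than once, the intervals are too narrow. The sums also included the star strands.

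**Figure D1:**
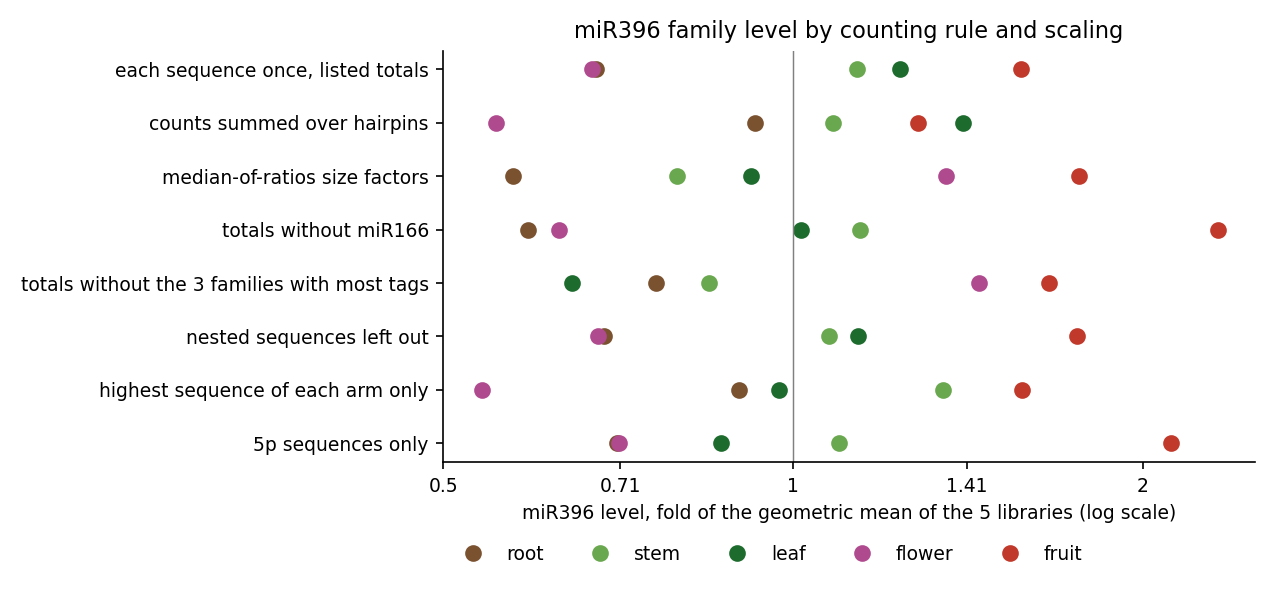
Level of miR396 in each tissue (points, coloured by tissue, 1 library each) as a fold of the geometric mean of the 5 libraries, on a log axis, with a row for each counting rule or scaling. Fruit is the rightmost point in 7 of the 8 rows and leaf in 1, while flower takes the lowest place in 4 rows, root in 3 and leaf in 1.

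The place of fruit held under most ways of counting, and the order of the other tissues did not. Fruit was highest in 7 of 8 settings, and leaf was highest where tags were summed over hairpins. The lowest tissue was flower in 4 settings, root in 3 and leaf in 1. With median-of-ratios size factors, flower moved to 1.35-fold of the geometric mean, against 0.671-fold with listed totals.

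The range of miR396 over tissues was narrow. Fruit exceeded flower by 2.34-fold with listed totals (2.23 to 2.45), and by 1.15-fold to 3.69-fold over the 8 settings. Whichever tissues they were, the highest and the lowest differed by between 2.34-fold and 3.93-fold over these settings. On the scale of normalised tags + 1, 48 of the 57 families that had 10 tags or more, 84.2%, differed 4-fold or more between their highest and lowest tissue, and miR396 was among the 9 that did not. With listed totals, only miR166, miR168 and the candidate miRC27 had smaller ranges, and the rank of miR396 was not taken under other scalings. miR166 made up between 321849 and 623489 of each 1000000 listed tags, which bounds its own range. The median of the 57 families was 53.9-fold, but they include families of 10 tags, whose ranges rest on few counts. Among the 25 families with at least 1000 tags the median was 9.39-fold, and 72.0% passed 4-fold. Against the mean of the other 4 tissues, miR396 was less than 2-fold higher in fruit and less than 2-fold lower in flower with listed totals. It was 2.75-fold higher in fruit with totals without miR166 and 2.50-fold higher with guide sequences alone. In flower it was 2-fold or more lower in 3 of the 8 settings, while under 2 others flower lay above that mean. Of the 57 families, 12.3% were 2-fold or more higher in fruit and 66.7% were 2-fold or more lower in flower with listed totals. In flower miR166, miR156 and miR168 had 406682, 339734 and 146425 normalised tags, against 321849, 82749 and 153348 in leaf. With these 3 families left out of the totals, miR396 in flower was at 1.44-fold of the geometric mean. Their part in the 66.7% was not tested.

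**Figure D2:**
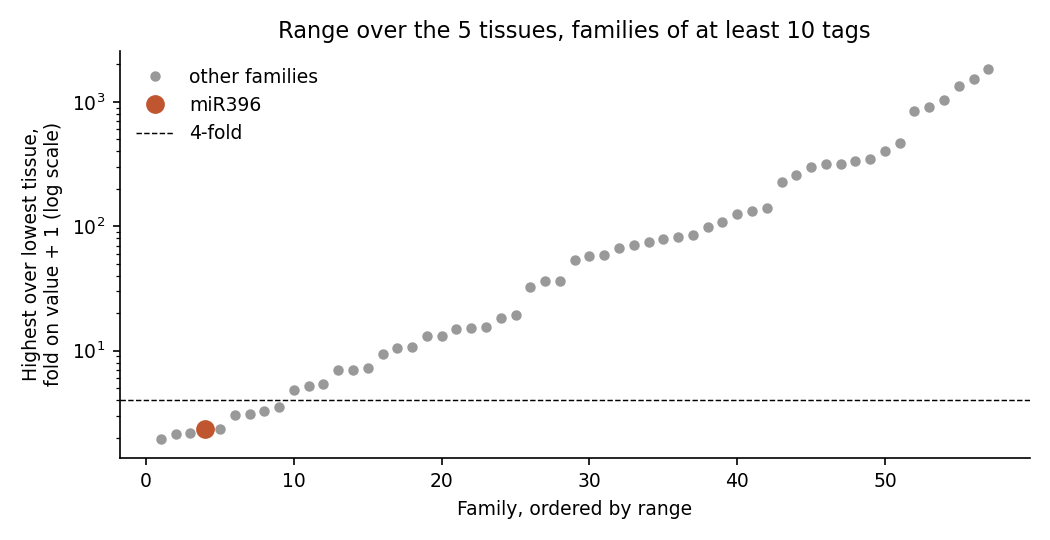
Highest over lowest tissue for each of the 57 families with at least 10 tags, on the scale of normalised tags + 1 with a log axis, ordered from the smallest. miR396 (large point) is the 4th from the left at 2.34-fold, below the dashed line at 4-fold that 48 families pass.

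The guide strands were highest in fruit. miR396a/b-5p, the sequence listed at both miR396a and miR396b and the most counted of the family, had 1046 tags in stem, 499 in root, 950 in leaf, 1126 in fruit and 940 in flower. In normalised tags it had 2155 in root, 3281 in stem, 1751 in leaf, 3616 in fruit and 1385 in flower. Fruit and stem were thus high and flower low, with 2.61-fold between fruit and flower (2.39 to 2.85). The difference between its highest and lowest tissue was the smallest of the 7 sequences with listed totals, and ran from 2.61-fold to 4.18-fold over the 4 scalings of the library totals.

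miR396c-5p had 384 tags in stem, 187 in root, 632 in leaf, 1037 in fruit and 701 in flower. Its normalised level was 3330 in fruit and 808 in root, a 4.12-fold difference (3.53 to 4.84), and its highest and lowest tissue differed by up to 6.98-fold over the 4 scalings. Stem, leaf and flower lay between these, from 1033 to 1204 normalised tags. miR396d-5p had 236 tags in stem, 93 in root, 660 in leaf, 976 in fruit and 652 in flower. Its normalised level was 3134 in fruit and 402 in root, a 7.80-fold difference (6.30 to 9.76), and up to 13.2-fold over the scalings. Each of the 3 guide sequences was highest in fruit under all 4 scalings, and the lowest tissue of miR396d-5p was root under all 4.

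miR396a/b made up less of the guide strands in leaf, flower and fruit than in root and stem. The miR396a/b sequence held 64.1% of the guide-arm tags in root (95% Clopper-Pearson interval 60.6 to 67.4) and 62.8% in stem (60.4 to 65.1). It held 42.4% in leaf (40.3 to 44.4), 35.9% in fruit (34.2 to 37.6) and 41.0% in flower (39.0 to 43.0). These shares need no scaling between libraries. Root and stem formed a high pair, separated from leaf, flower and fruit by far more than counting error. For each tag of the miR396a/b guide there were 0.186 tags of miR396d-5p in root, 0.226 in stem, 0.695 in leaf, 0.867 in fruit and 0.694 in flower. The ratio of miR396c-5p to the same sequence was 0.375 in root, 0.367 in stem, 0.665 in leaf, 0.921 in fruit and 0.746 in flower.

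Shared tags limit these ratios. If every tag of the lesser guide sequences were also listed under the highest, the guide arms held 1046 distinct tags in stem, 499 in root, 950 in leaf, 1126 in fruit and 940 in flower. If none were shared, they held 1666, 779, 2242, 3139 and 2293 in the same order. The part of sharing in the shift between tissues was not tested.

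**Figure D3:**
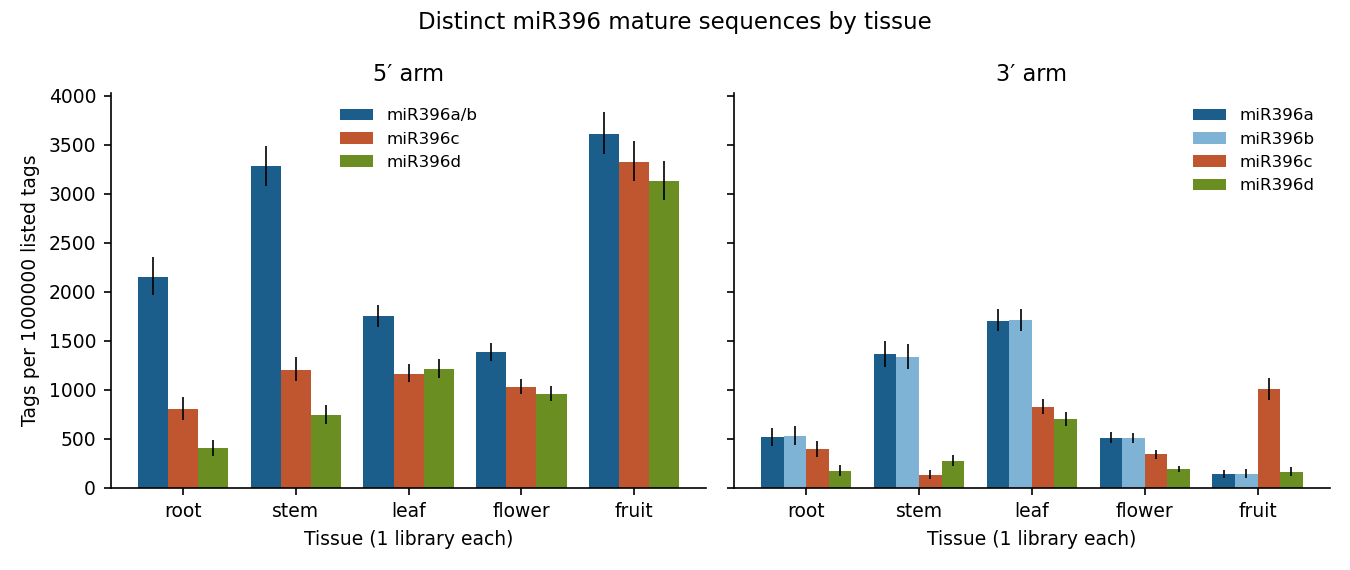
Normalised tags (per 1000000 listed tags) of each distinct miR396 sequence by tissue, guide (5′) arm on the left and star (3′) arm on the right, with 95% Poisson intervals. In fruit the 3 guide sequences stand between 3134 and 3616, and on the 3′ arm miR396c stands alone at 1005 while the others are at or below 157.

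The star strands showed another order of tissues. miR396b-3p had 425 tags in stem, 123 in root, 927 in leaf, 44 in fruit and 343 in flower. Leaf was the highest and fruit the lowest, with 1709 and 141 normalised tags, a 12.1-fold difference (8.94 to 16.8) that was 6.71-fold between the highest and lowest tissue under the scaling that gave least. miR396a-3p, nested in that sequence, had 434, 119, 926, 43 and 347 tags in the same order of tissues. miR396d-3p had 88 tags in stem, 39 in root, 379 in leaf, 49 in fruit and 128 in flower, and leaf exceeded fruit by 4.44-fold with listed totals (3.29 to 6.11). Its highest and lowest tissue differed by as little as 2.44-fold under another scaling. For these 3 star strands the highest tissue was leaf with listed totals and flower under at least 1 of the other 3 scalings. The lowest was fruit under all 4 scalings for miR396a-3p and miR396b-3p, and fruit or root for miR396d-3p.

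miR396c-3p went the other way in fruit. It had 42 tags in stem, 91 in root, 450 in leaf, 313 in fruit and 231 in flower. Fruit was the highest and stem the lowest under all 4 scalings. With listed totals they had 1005 and 132 normalised tags, a 7.63-fold difference (5.52 to 10.8, and up to 12.2 over the scalings). Leaf came next with 829 (755 to 910), an interval that overlapped that of fruit (897 to 1123). The guide and star strands of miR396c were thus both highest in fruit, whereas in the other 3 hairpins only the guide was. Of the 7 distinct sequences, all but the miR396a/b guide differed 4-fold or more between tissues with listed totals. That is 6 of 7, next to 90.0% of the 160 distinct sequences with at least 10 tags in the annotation, a similar share. With at least 1000 tags, 5 of 6 passed 4-fold, next to 78.7% of 47. Both counts include miR396a-3p and miR396b-3p, which are nested and list nearly the same tags. How wide the ranges were was not compared with those of the other sequences. Under the other 3 scalings 5 or 6 of the 7 passed, and the calls of the miR396a/b guide and of miR396d-3p changed with the scaling.

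Within the 3′ arm, miR396c took the place in fruit that miR396a/b held in stem. With the nested pair counted once, miR396c held 77.1% of the star tags in fruit (72.7 to 81.1), against 36.0% in root (30.1 to 42.2), 7.45% in stem (5.42 to 9.93), 25.6% in leaf (23.6 to 27.7) and 32.7% in flower (29.3 to 36.3). miR396a/b held 77.0% in stem (73.2 to 80.4), 52.8% in leaf, 49.2% in flower, 48.6% in root and 10.8% in fruit (7.99 to 14.3). miR396d stayed between 12.1% in fruit and 21.6% in leaf. In fruit, miR396c-3p exceeded the miR396a/b star by 7.11-fold (5.18 to 9.99), whereas in the other 4 tissues the same ratio was between 0.0968 in stem and 0.740 in root. As a ratio within a library it does not depend on scaling.

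**Figure D4:**
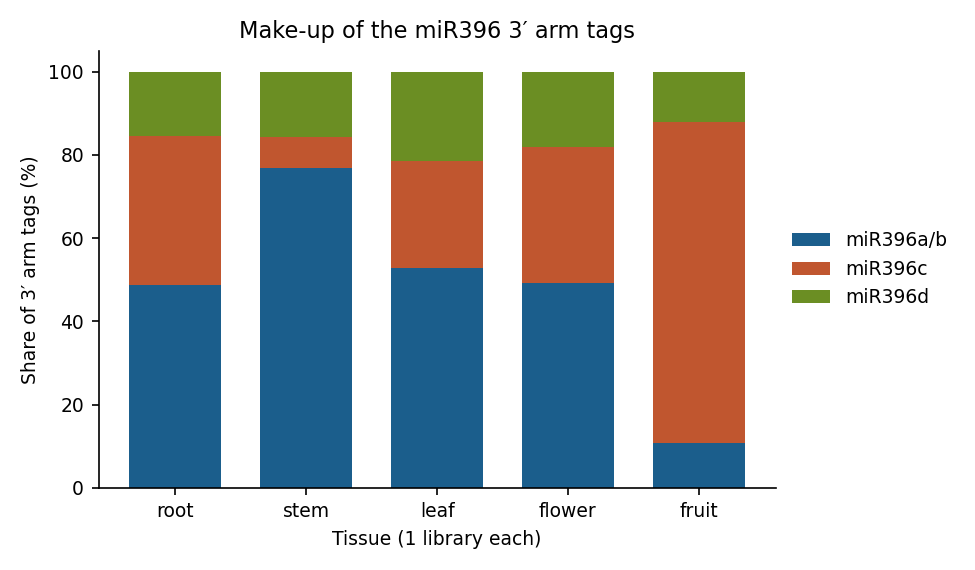
Share of the 3′ arm tags held by miR396a/b (nested pair counted once), miR396c and miR396d in each tissue, stacked to 100%, 1 library each. miR396c fills 77.1% of the fruit bar and miR396a/b 77.0% of the stem bar.

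Leaf had the largest part of star tags. With each distinct sequence once, the 3′ arm supplied 54.5% of the miR396 tags in leaf (53.1 to 55.9), against 32.3% in root (29.6 to 35.1), 37.3% in stem (35.4 to 39.1), 12.5% in fruit (11.4 to 13.6) and 31.4% in flower (29.8 to 33.0). Whether the star strands outnumbered the guides in leaf depended on how nested and shared tags were counted. With the nested sequence left out the guide arms held 56.1% of the leaf tags, with tags summed over hairpins 54.3%, and with the highest sequence of each arm alone 50.6%. Leaf had the lowest guide share in all of these settings. If every tag of the lesser guide sequences were also listed under the highest, the guide arms held 950 tags in leaf. The star strands had 1756 there with the nested pair counted once, so in that case they would still be ahead.

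By hairpin, the star share was highest in leaf for all 4. It was 49.4% in miR396a (47.1 to 51.6), 49.4% in miR396b (47.1 to 51.7), 41.6% in miR396c (38.6 to 44.6) and 36.5% in miR396d (33.5 to 39.5). The root share of miR396d was 29.5% on 132 tags, with an interval (21.9 to 38.1) that holds its leaf share. In root miR396c had 32.7% (27.2 to 38.6). miR396a, miR396b and miR396d had their lowest share in fruit, with 3.68%, 3.76% and 4.78%. miR396c kept 23.2% in fruit (21.0 to 25.5) and was lowest in stem with 9.86% (7.20 to 13.1). The guide counts in these shares may hold tags of the other hairpins. miR396a and miR396b have the same guide sequence, nested star strands and nearly the same counts, so their shares are not separate observations.

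**Figure D5:**
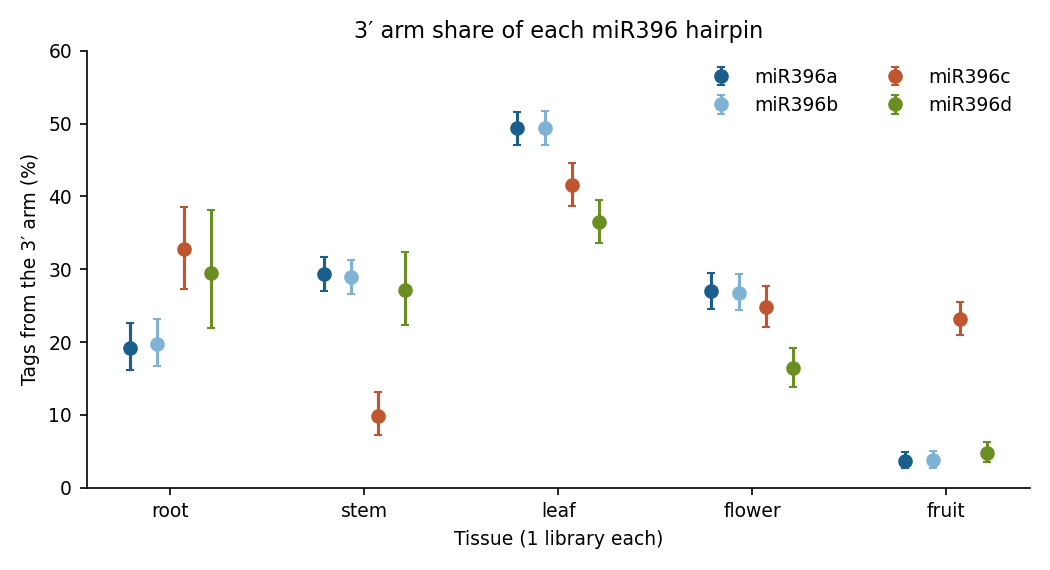
Percent of each hairpin's tags that come from the 3′ arm, by tissue, with 95% Clopper-Pearson intervals, 1 library each. All 4 hairpins have their highest share in leaf, between 36.5% and 49.4%, though the root interval of miR396d holds its leaf share. In fruit miR396c at 23.2% stands apart from the other 3 below 5%, of which miR396a and miR396b list nearly the same counts.

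A peak of the lesser arm in leaf was not confined to miR396. Of the 26 families with both arms listed and at least 10 tags in every library, 9 had the highest share of their lesser arm in leaf, 34.6%, and as many had it in flower. The share itself was larger in miR396 than in most families. The median of the other 25 families was 2.31% in leaf and 1.43% in fruit, and only miR482 had a larger share than miR396 in leaf. In root and in stem 1 of the 25 other families exceeded miR396, in flower 3 and in fruit 6. With nested sequences left out, miR396 had 43.9% in leaf, and miR162 and miR482 had more. These comparisons of arms were chosen after the values were seen.

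Other families of organ growth were set beside miR396 as a list of 9, chosen with earlier results of these data known. It holds miR319, miR159, miR164, miR156, miR166, miR160, miR390, miR393 and miR172, which act on transcription factors, auxin receptors or the TAS3 transcript. In the list 7 of 9 differed 4-fold or more between tissues or were listed at 0 in 1 of them, next to 84.2% of all 57 families. Among the 25 families with at least 1000 tags, 72.0% differed 4-fold or more. The median range of the list was 7.22-fold on the scale of normalised tags + 1, next to 53.9-fold over all 57. These medians are not at like tag counts. In the list only miR319, with 109 tags, had fewer than 1000, while the 57 include families of 10 tags. The highest tissues of the list were stem for 3, root for 2, flower for 2, leaf for 1 and fruit for 1, and that last family was miR166. The highest tissue of miR166, miR159 and miR390 depended on the scaling, with flower in place of fruit or stem under at least 1 of the 4. miR319, which acts on TCP factors, is upstream of miR396 in Arabidopsis, where its target TCP4 activates miR396 genes. It had 109 tags in all, with 22 in stem, 73 in root, 8 in fruit and 6 in flower, and was listed at 0 in leaf. This profile was unlike that of miR396 but rests on few counts, and the link between the families was not tested.

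With a pseudocount of 1, the profile nearest to that of miR396 was that of miR166, which acts on class III HD-ZIP factors that set organ polarity. Nearness was measured over the 5 libraries as the root mean square difference of the log2 profiles (normalised tags + 1) after centring, in which a common library factor nearly cancels. The difference was 0.42 log2 units for miR166, 0.50 for the candidate miRC4 and 0.54 for the candidate miRC27. Over the 42 families compared, each of 100 tags or more, the median was 1.71. The measure can place families of narrow range near one another whatever their order of tissues, and miR166 and miRC27 had smaller ranges than miR396. With listed totals miR166 was lowest in leaf, with 321849 normalised tags, whereas miR396 was lowest in flower and had 9076 in leaf. miRC4 and miRC27 had 134 and 151 tags in all, so their profiles rest on few counts. With a pseudocount of 10, miRC4 came before miR166. With at least 1000 tags required, the nearest after miR166 were miR159 and the candidate miRC16.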

How the data were processed

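The authors deposited an annotation in GFF format, made with MIREAP (plant) per the file headers. Its mature lines carry tag counts, whole numbers with no recorded scaling, for the 5 libraries. Total RNA was extracted with Trizol and sequenced on a HiSeq2000, per the labels' protocols. Library totals, genome build, aligner, trimming and the handling of tags that match several places were not given in the sources used here. Of 176 precursor lines 11 repeated another and were dropped. On 68 mature lines, 4 of them of miR396, the end lay before the start, so positions were computed from the hairpin and the sequence within it.

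A sequence listed on several hairpins of a family was counted once, with its highest count per library, and divided by the listed total. Intervals are 95% Poisson, Clopper-Pearson or, for ratios, from the exact binomial split. No test was made between tissues. Hairpins were folded with RNAfold (ViennaRNA 2.7.2) and aligned with Biopython 1.88 (match 1, mismatch -1, gap opening -2, gap extension -0.5). Values were computed with Python 3.11.15, numpy 2.4.6 and scipy 1.17.1. The fold rules and the ratio intervals were tested on simulated Poisson counts.

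All miR396 hairpins and sequences are named. Other families are named as the 3 nearest in profile, as the list of organ growth families, or where a result was set against them, and miR168, miR162, miR482, miR159 and miRC16 were chosen after their values were seen. The members and lists were chosen with earlier results of these data known. Alternatives covered scaling, counting of shared tags, arm definition, count minimums and the pseudocount.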

Additional observations from a re-analysis of the deposited data

How the results depend on the processing

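No paired analysis was possible because each tissue has 1 library, and no replicate could be left out. Levels below are folds of the geometric mean of the 5 libraries, in the order root, stem, leaf, flower and fruit, where the values with listed totals were 0.677, 1.13, 1.24, 0.671 and 1.57. With tags summed over hairpins they were 0.927, 1.08, 1.40, 0.555 and 1.28 (highest over lowest 2.52-fold). Median-of-ratios size factors gave 0.573, 0.795, 0.921, 1.35 and 1.76 (3.07-fold). Totals without miR166 gave 0.591, 1.14, 1.01, 0.629 and 2.32 (3.93-fold), and totals without the 3 families with most tags 0.762, 0.847, 0.646, 1.44 and 1.66 (2.57-fold). Chosen after seeing the data, leaving out nested sequences gave 0.687, 1.07, 1.14, 0.680 and 1.75 (2.58-fold), the highest sequence of each arm 0.898, 1.35, 0.973, 0.540 and 1.57 (2.91-fold), and guide sequences alone 0.705, 1.10, 0.866, 0.708 and 2.11 (2.996-fold).

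The guide-arm share, 67.7%, 62.7%, 45.5%, 68.6% and 87.5% in the same order, became 77.5%, 73.3%, 54.3%, 75.5% and 90.5% with tags summed over hairpins. It was 75.5%, 75.0%, 56.1%, 76.6% and 88.5% without nested sequences, and 80.2%, 70.7%, 50.6%, 73.0% and 78.2% with the highest sequence of each arm, where root and not fruit was highest. Arms taken from names or from the place in the hairpin gave the same shares. The miR396a/b share of guide tags became 78.1%, 77.1%, 59.5%, 58.1% and 52.8% with tags summed over hairpins. Families past 4-fold numbered between 46 and 50 of 57 over the pseudocounts, scalings and counting rules tried, 50 of 59 without a minimum, 35 of 43 with at least 100 tags and 18 of 25 with at least 1000, and miR396 passed it under none of these. With a pseudocount of 10 the nearest families were the same 3, with miRC4 before miR166. Of the 3, 1 remained with at least 1000 tags required, since the other 2 have fewer. The cause of the differences between scalings was not tested. Library depth is unknown, and star strands in fruit rest on 43 to 49 tags except for miR396c.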
